A study of Mus musculus with 16 samples.

Results

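Respiratory complex I, the NADH:ubiquinone oxidoreductase of the inner mitochondrial membrane, is encoded in the nucleus by the Nduf genes and in mitochondrial DNA by the mt-Nd genes, and its building needs assembly factors that are absent from the finished enzyme. The genes described here were all entries of the deposited count table whose symbols begin with Ndufa, Ndufb, Ndufc, Ndufs or Ndufv, assembly factors named Ndufaf included, without pseudogenes marked -ps (2 left out) and with at least 10 counts in total over the 16 libraries. Of 51 such genes 50 passed, among 20444 genes tested and 40840 in the table. Ndufb4b, with 4 counts in total, was just outside the minimum, and Ndufb4c and Ndufa11b, with 16 counts each, were just inside. By role the 50 genes were 37 subunits, 8 assembly factors (Ndufaf1 to Ndufaf8), Ndufa4 and its paralog Ndufa4l2, and 3 further copies (Ndufb4c, Ndufa11b and Ndufs6b). The lowest subunit, Ndufb4, had 2317 counts in total, so no subunit or assembly factor was near the minimum.

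The cells were p53-/-; Myc hepatoblasts, a mouse line that the study uses as a culture model of hepatocellular carcinoma. In it p53 is deleted and Myc overexpressed, as is so in all 4 groups. They received sorafenib, a multikinase inhibitor used against hepatocellular carcinoma, at 8.5 µM, or its vehicle DMSO. RNA was taken at 48 h and at 7 d, giving DMSO 48 h, sorafenib 48 h, DMSO 7 d and sorafenib 7 d, with 4 libraries each. The table holds raw counts of poly(A)-selected, stranded RNA-seq, with 16586254 to 30828427 counts per library (median 26360677). Nothing in the sources used here says whether replicates came from separate cultures, so the p-values measure the spread between these libraries, which may be technical. All libraries come from a single cell model.

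Complex I passes electrons from NADH through a chain of iron-sulfur clusters in its matrix arm to ubiquinone, and couples this to proton pumping by its membrane arm. The core subunits carry the catalytic chemistry, the accessory subunits surround and stabilise them, and the assembly factors join modules made separately, insert cofactors or modify subunits before they leave the complex. Liver cells rely on the enzyme for NADH oxidation, and its subunits are encoded on many chromosomes.

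Values below are normalised read counts, meaning counts scaled by library size and TMM factor to a common depth, and each set of 4 is in the order of replicates 1 to 4, DMSO before sorafenib. A log2 fold change (log2FC) is sorafenib over DMSO at the same time unless another contrast is named, with its standard error (SE). A gene was called at a false discovery rate (FDR) under 0.05 in the quasi-likelihood F test of edgeR, adjusted over all genes tested. The drug contrasts at 48 h and at 7 d share no library. The contrasts between times and the interaction reuse the same libraries, so their values are given side by side and no overlap with the drug contrasts is read from them.

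Libraries differed from their groups in 2 ways. In sorafenib 48 h replicate 2, genes on chromosomes 15 to 19 and X lay lower against the other libraries of the group than genes on chromosomes 1 to 13, by -0.73 on the log2 scale at the median (2211 and 7813 genes), a ratio of 0.604. The largest such step in the other 15 libraries was 0.0686 in size. Genes on those chromosomes took 14.5% of its counts, against 21.6% to 21.9% in the other libraries. Of the 37 subunits 14 lie there, as does the assembly factor Ndufaf7. Most counts of called genes, and the 48 h log2FCs of named genes on those chromosomes, are given with and without this library, a comparison that was part of leaving out each library in turn, and the values of other named genes mostly with it. Its part in each result beyond that was not tested. Between 2 libraries of a group, the chi-square of a gene measures how far its counts differ beyond sampling (1 on average under sampling alone), here over the 10655 to 10660 genes averaging 100 counts or more in a library. Its mean over genes, to which that average applies, was at least 1.58 in every pair. Its median over genes, to which that average does not apply, was 6.86 to 7.45 in the 3 pairs with sorafenib 48 h replicate 2. In all other pairs the median was 0.655 to 1.4. The mean of the chi-square was 32.6 to 38 in the 3 pairs with sorafenib 48 h replicate 2, but 53.1 to 71.5 in the 3 pairs with DMSO 7 d replicate 4. In the latter pairs the same 6 genes, mt-Rnr1 and mt-Rnr2 among them, made up 92.7% to 95% of the sum. The same 6 genes made up 80.6% to 92.2% between DMSO 48 h replicates 1 or 4 and 2 or 3 (mean 18.7 to 42.7). None of these 6 is a complex I gene, and DMSO 7 d replicate 4 was left out in its turn.

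**Figure D1:**
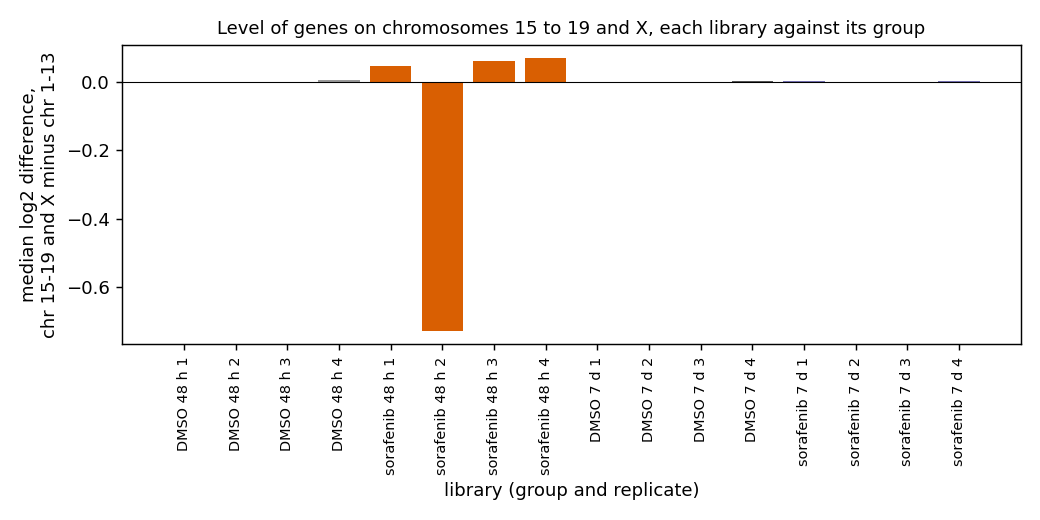
Bars from 0 give, for each of the 16 libraries, the median log2 difference from the rest of its group over genes on chromosomes 15 to 19 and X minus that over genes on chromosomes 1 to 13, coloured by group. Sorafenib 48 h replicate 2 lies at -0.73, and the other 15 libraries lie within 0.0686 of 0.

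Markers were measured beside the label. All 9 hepatoblast and liver epithelial markers were in the table, with 5 to 7 of them at 10 counts or more in each library. Dlk1, a hepatoblast surface protein, was the most abundant in each library, with 3488 to 38122 counts. Hnf4a was at 0 in all 16 libraries, Alb had 0 to 1 count and Afp 0 to 14, so these members of the list were at or near 0. Krt19 had 865 to 3013 counts and Sox9 204 to 1161. The name hepatoblast is that of the labels, and this list bears it out only in part. The summed level of the list, in CPM (counts scaled to the library total), was 1497, 1402, 1423 and 1492 with DMSO and 514, 559, 473 and 474 with sorafenib at 48 h, and 801, 733, 760 and 706 and 241, 252, 247 and 249 at 7 d. Of the 7 markers of other cells, Ptprc had 0 to 4 counts, Pecam1 0 to 9 and Lyve1 0 to 6. Col1a1, a collagen gene listed as mesenchymal, was the most abundant of these, with 39863 to 81817 counts, above Dlk1 in each library. The summed level of these markers in CPM was 1735, 1638, 1746 and 1785 with DMSO and 3205, 3388, 3001 and 3097 with sorafenib at 48 h, then 1718, 1611, 1687 and 1647 and 2138, 2088, 2087 and 2077 at 7 d. Leaving aside the markers at or near 0, Sox9 alone of 6 rose with sorafenib at 48 h and 7 d (log2FCs of 1.64 and 1.37), while Dlk1 (-1.63 and -2.06), Krt19 (-0.77 and -0.52), Krt8 (-0.69 and -1.10), Krt18 (-0.40 and -0.92) and Epcam (-2.13 and -2.67, at only 1 to 37 counts a library) fell, all called at both times. Krt8, Krt18 and Epcam lie on chromosomes 15 and 17, and without sorafenib 48 h replicate 2 their 48 h log2FCs were -0.51, -0.28 and -1.87. Col1a1 rose (0.95 and 0.31), as did Kdr (1.32 and 2.65), Des gave -0.30 (FDR 0.122) and -1.14 (FDR 0.000139), and Cd68, at 47 to 91 counts a library, was called at neither time (-0.033 with FDR 0.854, and -0.058 with FDR 0.728). Most counts of each sum are those of Dlk1 or Col1a1, so the sums say little of the other markers. Both sums lay apart between treatments at both times, and their part in the results on complex I was not tested. In bulk RNA, fewer cells of a type and less RNA per cell cannot be told apart.

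At 48 h the subunits moved in both directions and mostly by little. Of the 37 subunits 7 were called higher with sorafenib (18.9%, against 26.9% of all genes tested), 11 lower (29.7%, against 27.7%) and 19 were not called. Both shares lie near or under the background in this fit. The median log2FC was -0.046, beside -0.051 over all genes tested, with a range of -0.81 to 0.56, and 29 of the 37 were within 0.3 of 0. Without sorafenib 48 h replicate 2, 11 were called higher (29.7%, against 28.5% of 20353 genes) and 15 lower (40.5%, against 28.6%), with a median of -0.034. With the 8 libraries of 48 h alone, 6 were higher (16.2%, against 26.7% of 18265 genes) and 9 lower (24.3%, against 29.8%). Over all libraries left out in turn the median ran from -0.096, without DMSO 48 h replicate 3, to that value. The split moved with the scaling, to 6 higher and 15 lower with DESeq2 size factors (26.2% and 28.6% of all genes) and to 5 and 16 with total counts (23.9% and 31.7% of all genes). In 7 subunits all libraries with sorafenib lay above all those with DMSO (23.1% of all genes did), in 8 all lay below (24.9% of all genes), and in 22 the groups overlapped. Without replicate 2 these counts were 10 above (27.5% of all genes) and 12 below (28% of all genes), a comparison chosen after seeing the data.

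The subunits were also counted by chromosome group. Among the 23 subunits on chromosomes 1 to 13, 7 were higher and 4 lower at 48 h, with a median log2FC of -0.021, or 7 and 8 without replicate 2. Among the 14 on chromosomes 15 to 19 and X, 0 were higher and 7 lower by edgeR, with a median of -0.23, beside 1 higher and 8 lower at an unadjusted p under 0.05 and 0 higher and 8 lower by DESeq2. Without replicate 2, the same 14 genes gave 4 higher and 7 lower, with a median of -0.12. With the 8 libraries of 48 h alone the counts were 6 and 6 of the 23, and 0 and 3 of the 14, where all genes of these chromosomes gave 31.8% and 32.2%, and 16.3% and 28.2%. Over all genes tested on chromosomes 1 to 13, 31.7% were higher and 29.1% lower, or 31.0% and 30.6% without replicate 2, and on chromosomes 15 to 19 and X 19.7% and 31.3%, or 30.1% and 30.4% without it. The medians over all genes of these 2 chromosome groups were -0.0095 and -0.17, or -0.031 and -0.044 without replicate 2. This grouping was made after the step was seen.

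The 3 largest falls among called subunits at 48 h were in Ndufv3, Ndufa6 and Ndufa3. Ndufv3, an accessory subunit of the module that binds NADH (chr17:31739052-31751735, GRCm39), measured 1368, 1346, 1381 and 1484 with DMSO at 48 h, 909, 535, 839 and 884 with sorafenib at 48 h, 735, 692, 660.4 and 657 with DMSO at 7 d and 789.6, 712, 750.4 and 684 with sorafenib at 7 d. All sorafenib libraries lay below all DMSO libraries at 48 h, replicate 2 lowest, and the groups overlapped at 7 d. The log2FC at 48 h was -0.81 (SE 0.101, FDR 8.38e-07), and -0.67 without replicate 2. At 7 d it was 0.10 (SE 0.103, FDR 0.449) and not called.

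Ndufa6, an accessory subunit of the matrix arm with an LYR motif, gave 1934, 1730, 1868 and 1816 with DMSO and 1350, 894, 1374 and 1299 with sorafenib at 48 h, and 1430, 1335, 1317 and 1260 and 1201, 1190, 1117 and 1153 at 7 d. Sorafenib libraries lay below DMSO libraries without overlap at both times, with replicate 2 far under the rest of its group. The log2FC at 48 h was -0.57 (SE 0.0871, FDR 1.11e-05), or -0.45 without that library. At 7 d it was -0.20 (SE 0.0871, FDR 0.062) and not called, and without sorafenib 48 h replicate 2, which enters the shared estimate of the spread, it was -0.20 with FDR 1.44e-05. It was also called with the 8 libraries of 7 d alone (FDR 6.13e-06) and with a replicate block (FDR 0.027). Ndufa3, a small subunit of the membrane arm, gave 1146, 1025, 954 and 1247 and 655, 832, 745 and 718 at 48 h, then 783, 779, 821 and 811 and 766, 709.8, 699 and 683 at 7 d, in the same order of DMSO and sorafenib. Its groups did not overlap at either time. The log2FC was -0.57 (SE 0.0746, FDR 1.61e-06) at 48 h, -0.62 without replicate 2, and -0.16 (SE 0.0745, FDR 0.0716) at 7 d, the last not called. Leaving out DMSO 48 h replicate 3 or 4, sorafenib 48 h replicate 2 or sorafenib 7 d replicate 1 gave calls at 7 d, with FDRs of 0.0399, 0.0369, 0.00923 and 0.0482, as did the 8 libraries of 7 d alone (FDR 0.000901).

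The 3 largest rises among called subunits at 48 h, with all 16 libraries, were in Ndufs5, Ndufa9 and Ndufa10, and all of these were called higher at 7 d too. This order rests on sorafenib 48 h replicate 2. Without it Ndufs8, a core subunit on chromosome 19, was at 0.36 (FDR 2.08e-12) and Ndufb9, a membrane arm subunit on chromosome 15, at 0.32 (FDR 1.66e-12), above Ndufa9 at 0.31 and Ndufa10 at 0.26. Further subunits, not listed here, also lay above Ndufa10 without it. With it Ndufs8 was at 0.21 (FDR 0.106) and Ndufb9 at 0.19 (FDR 0.0712), and neither was called at 7 d. Without it Ndufb9 was called at 7 d too (0.15, FDR 1.31e-05) and Ndufs8 was not (FDR 0.159). These 2 are named after their values were seen. Ndufs5, a subunit on the intermembrane space side of the membrane arm (chr4:123606481-123612002), measured 333, 292, 271 and 258 with DMSO at 48 h against 401, 439, 421 and 438 with sorafenib, and 337, 329, 351 and 325 against 377, 398, 394 and 372 at 7 d. The groups did not overlap at either time. The log2FC was 0.56 (SE 0.0686, FDR 6.4e-07) at 48 h, 0.55 without replicate 2, and 0.20 (SE 0.0662, FDR 0.0145) at 7 d. Ndufa10, a membrane arm subunit with a nucleoside kinase fold, measured 2900, 2969, 3016 and 2896 against 3668, 3786, 3421 and 3514 at 48 h and 3165, 3182, 3179 and 3146 against 3599, 3824, 3671 and 3713 at 7 d. Each sorafenib library was above each DMSO library at both times. The log2FC was 0.29 (SE 0.0337, FDR 3.48e-07) and 0.22 (SE 0.0334, FDR 7.75e-06).

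Ndufa9 lies in the matrix arm near the ubiquinone site, and its protein is among those the study detected by antibody. Its counts were 1875, 1890, 1768 and 1783 with DMSO and 2277, 2243, 2290 and 2220 with sorafenib at 48 h, 2068, 2064, 2137 and 2126 and 2124, 2283, 2373 and 2341 at 7 d. The groups were apart at 48 h, and at 7 d sorafenib replicate 1 fell within the DMSO range. The log2FC was 0.30 (SE 0.0375, FDR 7.2e-07) at 48 h and 0.12 (SE 0.0369, FDR 0.00908) at 7 d. Ndufb8, a membrane arm subunit also detected by antibody, gave 2703, 2542, 2456 and 2389 and 2333, 1562, 2168 and 2225 at 48 h and 2398, 2378, 2483 and 2437 and 2260, 2281, 2253 and 2336 at 7 d. Sorafenib libraries lay below DMSO libraries at both times, narrowly at 7 d. The log2FC was -0.28 (SE 0.0786, FDR 0.0049) at 48 h, -0.17 without replicate 2, and -0.087 (SE 0.0777, FDR 0.363) at 7 d. The 48 h call was lost with the 8 libraries of 48 h alone (log2FC -0.30, FDR 0.0524). The 7 d difference was called without sorafenib 48 h replicate 2, at FDR 0.0132, and with the 8 libraries of 7 d alone (FDR 0.00197), and the interaction was called with total counts (FDR 0.0316). Ndufb8 shares 11.3% of its exon bases with another gene on the same strand, so its counts are uncertain by an amount that this share does not give.

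At 7 d the range of changes was narrower. Of the 37 subunits 5 were called higher (13.5%, against 28.9% of all genes), 10 lower (27.0%, against 27.9%) and 22 were not called. The median log2FC was -0.051, beside 0.020 over all genes tested, and values ran from -0.30 to 0.37, with 35 of 37 within 0.3 of 0. Without sorafenib 48 h replicate 2, a library of the other time that enters the shared estimate of the spread, 8 were higher (21.6%, against 31.2% of all genes) and 16 lower (43.2%, against 30.7%). The 8 libraries of 7 d alone also gave 8 and 16, against 33.4% and 33.3% of 18970 genes, so whether calls were fewer at 7 d than at 48 h turned on the fit. With total counts the split was 6 higher and 8 lower (29.9% and 26.5% of all genes). In 5 subunits the sorafenib libraries all lay above (28.5% of all genes), in 14 all below (28.4% of all genes), and in 18 the groups overlapped.

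Ndufab1, the mitochondrial acyl carrier protein that sits in both arms, fell most at 7 d. It measured 796, 851, 836 and 818 with DMSO and 773, 836, 773 and 678 with sorafenib at 48 h, and 910.4, 870.3, 883 and 840.3 with DMSO and 699, 706, 706 and 732 with sorafenib at 7 d. The groups overlapped at 48 h and were apart at 7 d. The log2FC at 7 d was -0.30 (SE 0.0507, FDR 3.52e-05), and at 48 h it was -0.11 (SE 0.0517, FDR 0.0744). The 48 h difference was called when any of DMSO 48 h replicates 1, 3 or 4 or sorafenib 48 h replicates 1, 2 or 3 was left out, at FDRs of 0.0222, 0.0464, 0.0335, 0.0281, 0.00644 and 0.0363. It was also called with DESeq2 size factors (FDR 0.0418), total counts (FDR 0.00952), 10 counts in every library (FDR 0.0118) and DESeq2 (FDR 0.0298).

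Ndufa5, a matrix arm subunit, measured 1068, 1068, 1020 and 964 and 1030, 1069, 1072 and 981 at 48 h for DMSO and sorafenib, and 1199, 1142, 1163 and 1244 and 895, 1048, 999 and 969.9 at 7 d. Values overlapped at 48 h, while at 7 d all sorafenib libraries were lower. The log2FC at 7 d was -0.28 (SE 0.05, FDR 8.15e-05). Ndufb2, a membrane arm subunit, measured 768, 689.7, 619.7 and 643 and 647, 669.9, 643 and 634 at 48 h, then 611, 657, 691 and 660.4 and 560.2, 539, 496 and 591 at 7 d. Again only the 7 d groups were apart, and the log2FC there was -0.26 (SE 0.0646, FDR 0.00159).

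Ndufa7, a matrix arm accessory subunit (chr17:34043537-34057291), was called in opposite directions at the 2 times. It measured 2543, 2499, 2411 and 2724 with DMSO and 2210, 1323, 2183 and 2302 with sorafenib at 48 h, and 1739, 1654, 1754 and 1851 with DMSO and 2436, 2183, 2170 and 2231 with sorafenib at 7 d. Sorafenib libraries were all below DMSO at 48 h and all above at 7 d, and the DMSO libraries of 7 d were lower than those of 48 h. The log2FC was -0.34 (SE 0.108, FDR 0.0117) at 48 h, -0.19 with FDR 2.83e-05 without replicate 2, and 0.37 (SE 0.108, FDR 0.00673) at 7 d. With the 8 libraries of 48 h alone the 48 h difference was not called, at a log2FC of -0.36 (FDR 0.0748) that kept its direction. Ndufa13, a membrane arm subunit also known as GRIM-19, measured 2619, 2542, 2484 and 2531 and 2477, 2589, 2624 and 2575 at 48 h, and 1920, 1891, 2026 and 1935 and 2173, 2242, 2234 and 2376 at 7 d. Its groups overlapped at 48 h and were apart at 7 d, where the log2FC was 0.22 (SE 0.0353, FDR 2.6e-05).

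Ndufs1, the largest core subunit and carrier of iron-sulfur clusters (chr1:63182058-63216236), was also called in opposite directions. It gave 3572, 3612, 3602 and 3415 with DMSO and 4007, 4096, 4018 and 4141 with sorafenib at 48 h, and 3664, 3876, 3694 and 3760 with DMSO and 3454, 3495, 3493 and 3596 with sorafenib at 7 d. The sorafenib libraries were all higher at 48 h and all lower at 7 d. The log2FC was 0.20 (SE 0.0301, FDR 1.26e-05) at 48 h and -0.10 (SE 0.03, FDR 0.0106) at 7 d, the latter not called when total counts replaced TMM (FDR 0.0829) or with no filter on low counts (FDR 0.0712). Across the 37 subunits, 6 were called at both times: Ndufa10, Ndufs5 and Ndufa9 higher, Ndufb3 lower, and Ndufs1 and Ndufa7 opposite. As shares these are 16.2% called at both times (41.3% of all genes), 8.11% higher at both (18.5% of all genes), 2.7% lower at both (18% of all genes) and 5.41% opposite (4.78% of all genes). A further 12 were called only at 48 h (32.4%, against 13.3% of all genes), 9 only at 7 d (24.3%, against 15.5%) and 10 at neither (27.0%, against 29.9%), where a call at a single time does not show a difference between times. Ndufb3, a membrane arm subunit, was not called at 48 h when DMSO 48 h replicate 2 was left out (log2FC -0.11, FDR 0.113) or with no filter on low counts (FDR 0.153).

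**Figure D2:**
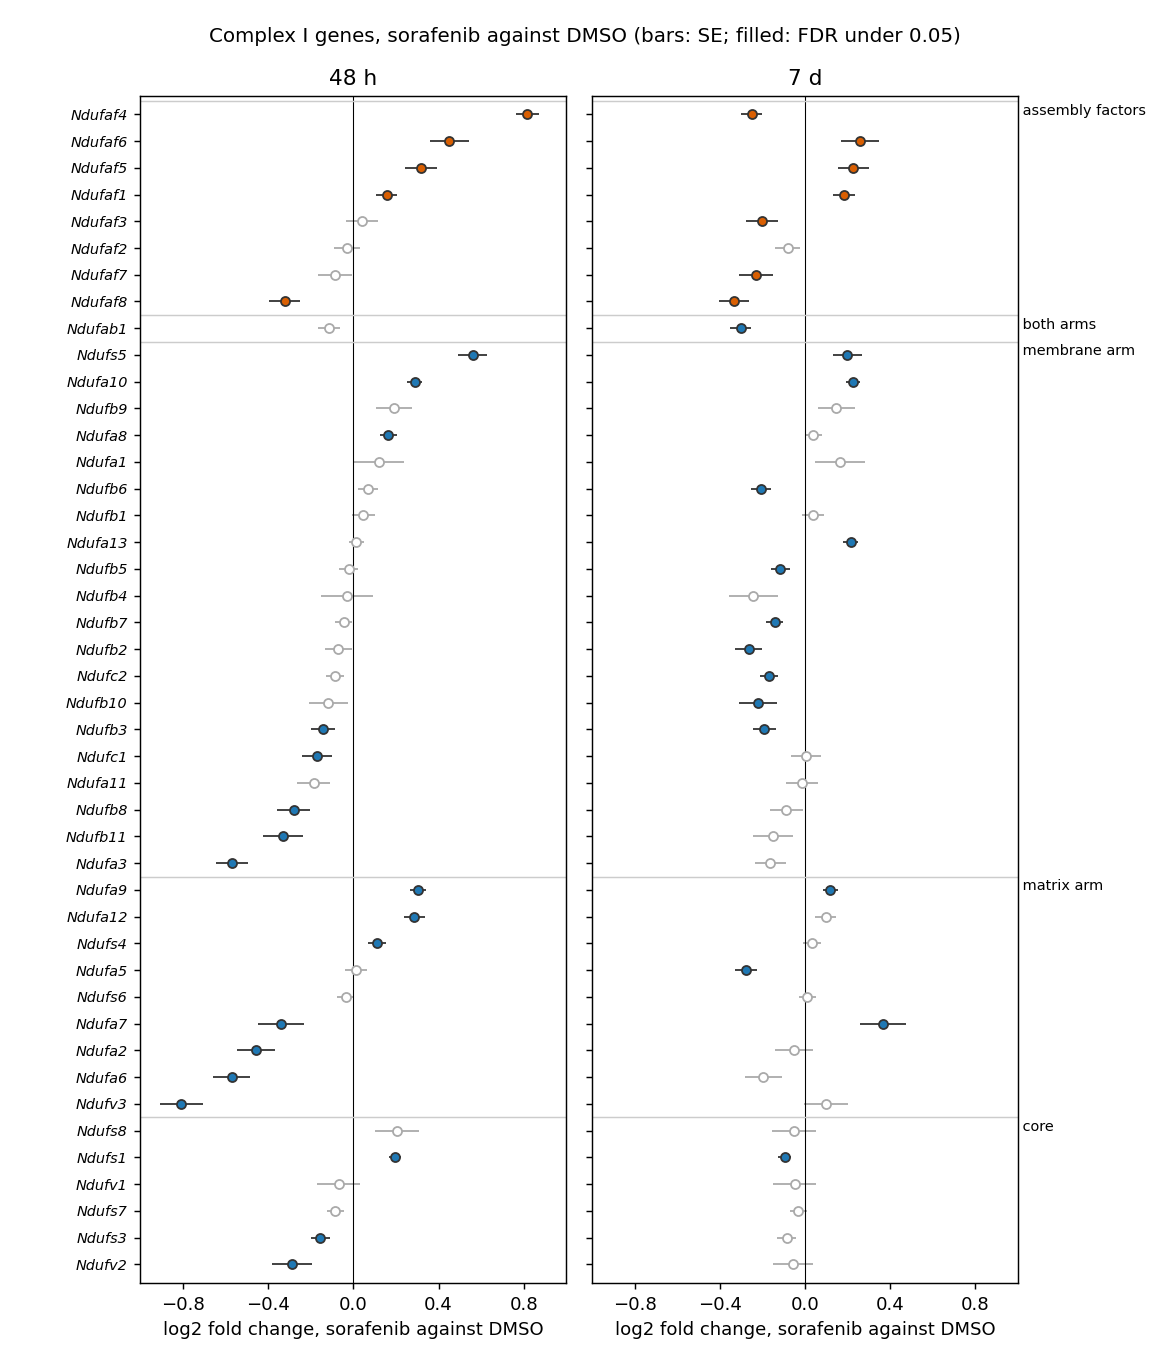
Log2 fold change of sorafenib over DMSO at 48 h and at 7 d for the assembly factors and all subunits but 1, with bars of 1 SE from the edgeR fit, filled points for an FDR under 0.05 (blue subunits, orange assembly factors) and open points for the rest. Most subunits lie within 0.3 of 0 at both times, Ndufv3 reaches -0.81 at 48 h, and Ndufaf4 is at 0.82 at 48 h and -0.25 at 7 d.

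By position in the enzyme, the 7 core subunits had 1 higher and 2 lower at 48 h and 0 higher and 1 lower at 7 d by edgeR. Here 26.9% and 27.7% of all genes were higher and lower at 48 h, and 28.9% and 27.9% at 7 d. The 7 d counts of the core were the same by DESeq2 and at an unadjusted p under 0.05. The 9 accessory subunits of the matrix arm had 3 higher and 4 lower at 48 h, and 2 higher and 1 lower at 7 d. The 20 of the membrane arm had 3 higher and 5 lower at 48 h, and 3 higher and 7 lower at 7 d. Without sorafenib 48 h replicate 2 the 48 h counts were 3 and 4 for the core, 3 and 4 for the matrix arm and 5 and 6 for the membrane arm, and the 7 d counts 0 and 2, 3 and 2, and 5 and 11, where all genes gave 28.5% and 28.6% at 48 h and 31.2% and 30.7% at 7 d. These groups are small, and no difference between them was tested.

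The DMSO libraries alone also differed between 7 d and 48 h, where time and harvest cannot be told apart. Of 37 subunits 7 were higher at 7 d (18.9%, against 23.9% of all genes) and 13 lower (35.1%, against 25.5%), with a median log2 difference of -0.053, and -0.011 over all genes. Leaving out sorafenib 48 h replicate 2 gave 10 higher (27.0%, against 27.1% of all genes) and 16 lower (43.2%, against 28.2%). With total counts the split was 2 higher and 15 lower (20.1% and 28.5% of all genes). Ndufv3 fell by 1.03 on the log2 scale (FDR 4e-08), Ndufa7 by 0.54 (FDR 0.000271), Ndufa6 by 0.46 (FDR 0.000136), Ndufa3 by 0.45 (FDR 2.5e-05) and Ndufa13 by 0.39 (FDR 1.4e-08). Between the sorafenib libraries, 1 subunit was higher at 7 d (2.7%, against 17.5% of all genes) and 7 were lower (18.9%, against 22.3%), with 2 and 13 without sorafenib 48 h replicate 2 (19.4% and 25% of all genes) and 2 higher without replicate 1 of that group. The single rise was in Ndufa11, a membrane arm subunit on chromosome 17, named after its value was seen (log2 difference 0.25, FDR 0.0151; 0.15 and FDR 0.0106 without replicate 2).

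The interaction asks whether the response to sorafenib differed between 7 d and 48 h, where again time and harvest cannot be told apart. Of 37 subunits 6 had a higher response at 7 d (16.2%, against 15.5% of all genes) and 7 a lower (18.9%, against 21.3%), both near the background. Leaving out sorafenib 48 h replicate 2 gave 8 (21.6%, against 18.1%) and 10 (27.0%, against 24.9%). With total counts the split was 10 and 4 (20.2% and 16.1% of all genes), and without DMSO 48 h replicate 3 the lower responses numbered 4. The interaction, as a log2 difference of responses, was 0.91 (SE 0.145, FDR 4.3e-05) for Ndufv3 and 0.77 without sorafenib 48 h replicate 2. For Ndufa7 it was 0.70 (SE 0.152, FDR 0.000974), or 0.55 without that library. For Ndufs1 it was -0.29 (SE 0.0425, FDR 1.55e-05).

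The assembly factors split in both directions as well. At 48 h 4 of the 8 were called higher with sorafenib (50.0%, against 26.9% of all genes), 1 lower (12.5%, against 27.7%) and 3 were not called, with a median log2FC of 0.099. At 7 d 3 were higher (37.5%, against 28.9%), 4 lower (50.0%, against 27.9%) and 1 was not called, with a median of -0.14. Without sorafenib 48 h replicate 2 the counts were again 4 and 1, and 3 and 4, against 28.5% and 28.6%, and 31.2% and 30.7%, of all genes. The 8 libraries of 48 h alone gave 3 and 1 (26.7% and 29.8% of 18265 genes). The medians of all genes were -0.051 and 0.020. The 7 d count of lower genes was 2 without DMSO 7 d replicate 3, and 2 with no filter on low counts. With 8 genes each call is 12.5% of the group, and no difference from the background was tested. All sorafenib libraries were above DMSO for 4 and below for 1 at 48 h (23.1% and 24.9% of all genes), and above for 2 and below for 3 at 7 d (28.5% and 28.4% of all genes).

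Ndufaf4 had the largest change of the 8 at 48 h, and the smallest interaction p of the members. It is a small protein that works with Ndufaf3 early in building the matrix arm (chr4:24898079-24905001, plus strand). It measured 545, 591, 532 and 517 with DMSO and 892, 1025, 965 and 969.9 with sorafenib at 48 h, and 1136, 1078, 1013 and 1055 with DMSO and 898, 928, 886 and 890.3 with sorafenib at 7 d. The DMSO libraries of 48 h were the low group, and the other 3 groups lay between 886 and 1136. Sorafenib was above DMSO without overlap at 48 h and below without overlap at 7 d. The log2FC was 0.82 (SE 0.052, FDR 3.65e-11) at 48 h, a fold of 1.76, and -0.25 (SE 0.0489, FDR 0.000196) at 7 d. The interaction was -1.07 (SE 0.0714, FDR 3.53e-10), and -1.04 without sorafenib 48 h replicate 2. Between times the DMSO libraries differed by 0.97 (SE 0.0508, FDR 4.74e-12) and the sorafenib libraries by -0.10 (SE 0.0501, FDR 0.14), the latter not called.

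**Figure D3:**
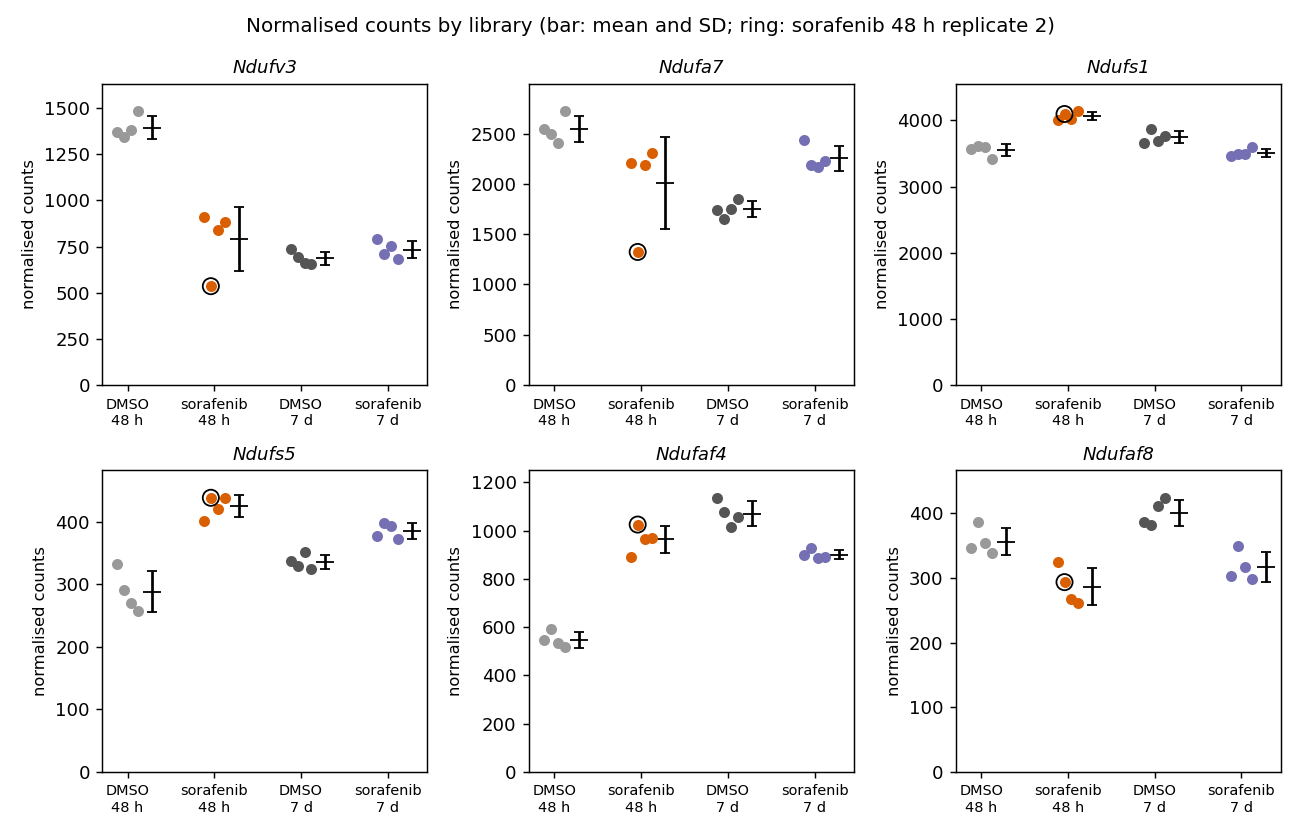
Normalised read counts of 6 named genes in each of the 16 libraries, 1 panel per gene with the axis from 0, points for libraries, a bar beside them for the group mean and SD (n = 4), and a ring around sorafenib 48 h replicate 2. Ndufaf4 has its 4 DMSO 48 h libraries at 517 to 591 and the other 12 libraries at 886 to 1136.

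The region before the start of Ndufaf4 is shown because this gene had the smallest interaction p of the members. Among the 8 Ndufaf genes it changed most at 48 h, though Ndufaf8 and Ndufaf6 changed more at 7 d. The region was read from the GRCm39 genome at chr4:24897833-24898078, plus strand, 246 bases, matched to the RefSeq promoter table of GRCm38.p6. The annotation places 5 distinct exons in it, whose genes are not given here. Capitals mark overlapping matches, 1 on each strand, to GCGCATGCG, the core of the motif of NRF1, a regulator of many nuclear genes for mitochondrial proteins.
Ndufaf4: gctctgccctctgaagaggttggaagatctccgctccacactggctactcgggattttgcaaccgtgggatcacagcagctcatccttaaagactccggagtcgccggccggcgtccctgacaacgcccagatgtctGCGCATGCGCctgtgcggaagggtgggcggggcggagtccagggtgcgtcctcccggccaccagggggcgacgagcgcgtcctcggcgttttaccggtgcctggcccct

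Motifs were searched on both strands in the 250 bases before each start, over 32851 promoters of 27025 genes in the RefSeq table. GCGCATGCG was in 1.45% of all promoters, in 2 of 35 promoters of 33 subunit genes (Ndufa8 and Ndufa11), in 1 of 7 of the assembly factors (Ndufaf4) and in 1 of 12 promoters of 10 genes with other names (Tmem186). The ETS motif CCGGAAG was in 6.91% of all promoters, in 3 of the 35 (Ndufb6, Ndufb7 and Ndufs3) and in 2 of the 7 (Ndufaf1 and Ndufaf8) and in 3 of the 12 (Timmdc1, Tmem126a and Tmem186). AANATGGCG, the motif of YY1, was in 1.12% of all promoters and in 2 of the 35 (Ndufa7 and Ndufb11) but in 0 of the 7 and in 1 of the 12 (Dmac2). TGATGNAAN, the composite motif of ATF4, was in 3.44% of all and in 0 of each of these 3 lists. A match describes the letters and no more, and a missing match says only that these letters are not in the window.

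Ndufaf1, which joins the membrane arm assembly complex, measured 549, 547, 552 and 507 and 624, 570.1, 595 and 609.9 at 48 h in DMSO and sorafenib, and 461, 446, 467 and 482 and 519.7, 546, 551 and 489.9 at 7 d. Sorafenib was higher without overlap at both times, with small steps. The log2FC was 0.16 (SE 0.0504, FDR 0.0129) at 48 h and 0.18 (SE 0.0503, FDR 0.00387) at 7 d. The 48 h call was lost without DMSO 48 h replicate 4 or sorafenib 48 h replicate 1, 3 or 4, at FDRs of 0.13, 0.11, 0.0576 and 0.0915, with total counts (FDR 0.182) and with the 8 libraries of 48 h alone (FDR 0.0686), and was kept without replicate 2 at 0.18 with FDR 0.00647.

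Ndufaf5, which hydroxylates an arginine of Ndufs7, measured 363, 380, 307 and 307 and 419.5, 466, 396 and 417 at 48 h, then 359, 362, 343 and 353 and 380.2, 427, 408 and 439 at 7 d. Its groups were apart at both times. The log2FC was 0.32 (SE 0.0738, FDR 0.00107) and 0.23 (SE 0.0716, FDR 0.0105). Ndufaf8, the partner of Ndufaf5, went the other way. It measured 346, 387, 353 and 339 with DMSO and 324, 293, 267 and 261 with sorafenib at 48 h, and 386, 382, 412 and 424 and 303, 350, 318 and 299 at 7 d. All sorafenib libraries were lower at both times, with a log2FC of -0.32 (SE 0.075, FDR 0.00103) at 48 h and -0.33 (SE 0.0707, FDR 0.000422) at 7 d.

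Ndufaf6, an early assembly factor, measured 227, 207, 200.1 and 227 with DMSO and 288, 325, 299 and 268 with sorafenib at 48 h, and 279, 224, 213 and 261 and 288, 262, 320.1 and 293 at 7 d. The groups were apart at 48 h and overlapped at 7 d. The log2FC was 0.45 (SE 0.0911, FDR 0.000278) and 0.26 (SE 0.0872, FDR 0.0161). The 7 d call was lost without DMSO 7 d replicate 2 or 3 or sorafenib 7 d replicate 3, at FDRs of 0.0582, 0.0706 and 0.0684.

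Ndufaf3, the partner of Ndufaf4, measured 177, 165, 167 and 178 with DMSO and 177, 163, 183 and 182 with sorafenib at 48 h, and 145, 164, 168 and 154 and 146, 129.9, 130.3 and 145 at 7 d. Groups overlapped at both times. The log2FC was 0.041 (SE 0.0737, FDR 0.669) at 48 h and -0.20 (SE 0.0742, FDR 0.0262) at 7 d. The 7 d call was lost with DESeq2 (FDR 0.0531), with total counts (FDR 0.0618), with no filter on low counts (FDR 0.0881), with a replicate block (FDR 0.0622) and without DMSO 7 d replicate 2 or 3 or sorafenib 7 d replicate 2 or 3 (FDRs of 0.0665, 0.082, 0.0812 and 0.077). Its interaction was called without DMSO 7 d replicate 1, at -0.28 with FDR 0.047.

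Ndufaf7, a mitochondrial methyltransferase, measured 841, 842, 759 and 835 with DMSO and 869, 578, 817 and 809.8 with sorafenib at 48 h, and 769, 732, 770 and 719.7 and 619.8, 671, 631 and 625 at 7 d. The groups overlapped at 48 h, with replicate 2 far below its group, and sorafenib was lower without overlap at 7 d. The log2FC was -0.086 (SE 0.0814, FDR 0.395) at 48 h, not called, 0.018 without replicate 2, and -0.23 (SE 0.0814, FDR 0.0212) at 7 d. The 7 d call was lost without DMSO 7 d replicate 3 (log2FC -0.22, FDR 0.0534) and with no filter on low counts (FDR 0.0546), and without sorafenib 48 h replicate 2 the interaction of -0.25 was called (FDR 0.00231).

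Ndufaf2, a paralog of the subunit Ndufa12 that takes its place before it joins, measured 578, 498, 479.8 and 556 with DMSO and 507, 501, 552 and 505 with sorafenib at 48 h, and 652, 650.2, 622 and 599 and 609, 573, 583 and 622 at 7 d. The groups overlapped at both times. It was called at neither, with log2FCs of -0.029 (SE 0.0604, FDR 0.719) and -0.081 (SE 0.0573, FDR 0.245).

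**Figure D4:**
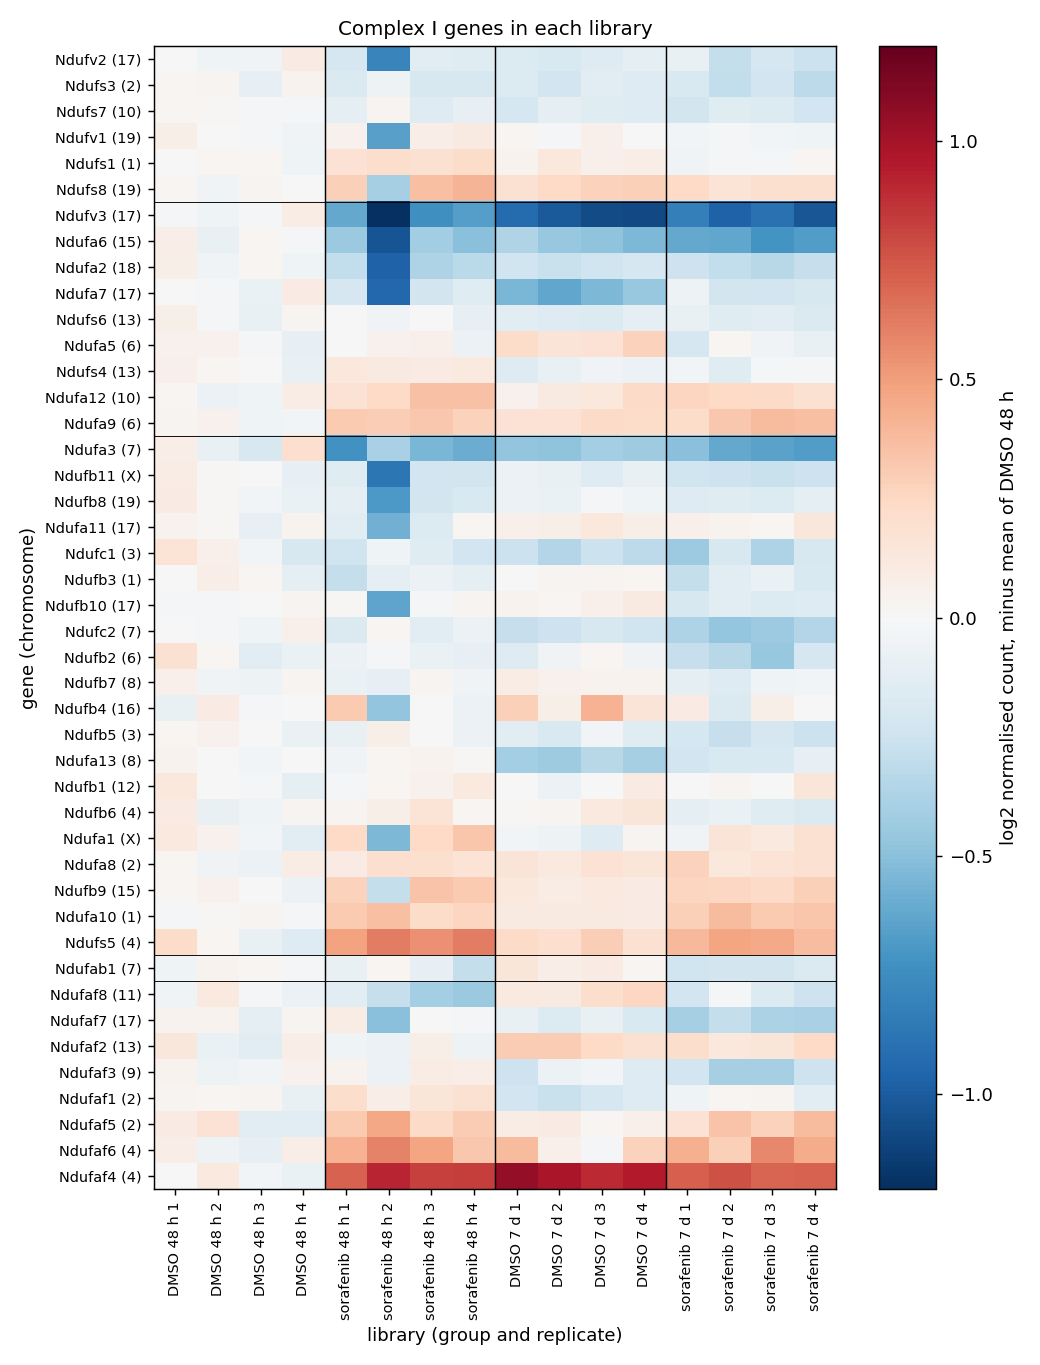
Heat map of the log2 normalised count of the assembly factors and all subunits but 1, with the chromosome in brackets, in each of the 16 libraries, minus the gene's mean over the DMSO 48 h libraries, red higher and blue lower. Ndufaf4 is red in the 12 libraries of the other 3 groups, and sorafenib 48 h replicate 2 is bluer than its group in genes on chromosomes 15 to 19 and X such as Ndufv3 and Ndufa7.

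Across the 8 assembly factors, the interaction was called for 0 higher (15.5% of all genes) and 1 lower (12.5%, against 21.3%) by edgeR. The counts were the same by DESeq2 (16.4% and 20.9% of all genes), and 0 higher and 2 lower at an unadjusted p under 0.05. Without sorafenib 48 h replicate 2 (24.9% of all genes lower) or DMSO 7 d replicate 1, 2 were lower. Between the DMSO libraries of 7 d and 48 h, 2 were higher (25%, against 23.9%) and 1 lower (12.5%, against 25.5%), with a median of 0.12. These were 3 and 2 without sorafenib 48 h replicate 2 (27.1% and 28.2% of all genes), and with total counts 2 and 2 (20.1% and 28.5% of all genes). Between the sorafenib libraries, 1 was higher (12.5%, against 17.5%) and 3 lower (37.5%, against 22.3%), with a median of -0.063. Without sorafenib 48 h replicate 2 that median was -0.027. With total counts 2 were higher and 3 lower (19.8% and 19.2% of all genes). Leaving out sorafenib 48 h replicate 1 gave 2 higher.

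A list of 12 further assembly factors with other names was fixed beside the members. At 48 h 5 were higher (41.7%, against 26.9% of all genes), 3 lower (25%, against 27.7%) and 4 not called, with a median of 0.067. At 7 d 5 were higher (41.7%, against 28.9%), 5 lower (41.7%, against 27.9%) and 2 not called, with a median of 0.013. Leaving out sorafenib 48 h replicate 2 kept all 4 counts, with a 48 h median of 0.083, and moved the interaction from 2 higher and 2 lower (15.5% and 21.3% of all genes) to 2 and 5 (18.1% and 24.9% of all genes). Tmem126a, an assembly factor of the membrane arm, rose at both times, with log2FCs of 1.05 (FDR 1.45e-13) and 0.95 (FDR 4.1e-13). Foxred1, a flavoprotein of late assembly, rose by 0.70 and 0.29, Nubpl, an iron-sulfur carrier for the enzyme, by 0.36 and 0.74, and Timmdc1, a membrane arm factor, by 0.66 and 0.41. Dmac2 fell, with -1.02 (FDR 3.7e-10) and -0.52 (FDR 5.86e-06), as did Dmac1, with -0.68 and -0.74, and Lyrm2, with -0.37 and -0.29. Ecsit, which acts with Ndufaf1, rose at 48 h by 0.54 (FDR 6.61e-08) and gave -0.012 at 7 d (FDR 0.868), with an interaction of -0.55 (FDR 1.03e-05). Acad9, Tmem126b and Tmem186, which act with Ndufaf1 and Ecsit, were called at 7 d only, with -0.14, 0.18 and -0.51, and Tmem70, which also serves ATP synthase, was called at neither time (0.093 and 0.037). The call of Tmem126b was lost without DMSO 7 d replicate 3 or 4 or sorafenib 7 d replicate 2 or 4, at FDRs of 0.0977, 0.0771, 0.0944 and 0.0848. Of these 12, 7 were called in 1 direction at both times, 4 higher (33.3%, against 18.5% of all genes) and 3 lower (25%, against 18%). Timmdc1 and Tmem186 lie on chromosome 16, and without that library their 48 h log2FCs were 0.78 and -0.092 (0.66 and -0.23 with it), with interactions of -0.38 (FDR 2.29e-06) and -0.42 (FDR 2.1e-06), against -0.26 (FDR 0.122) and -0.28 (FDR 0.151) with it.

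Ndufa4, first described with complex I and now placed in complex IV, measured 4006, 4022, 3831 and 3908 with DMSO and 2711, 2985, 2785 and 2795 with sorafenib at 48 h, and 3736, 3900, 3819 and 3841 and 2524, 2507, 2494 and 2538 at 7 d. All sorafenib libraries were below all DMSO libraries at both times. The log2FC was -0.48 (SE 0.0323, FDR 7.69e-11) at 48 h and -0.60 (SE 0.0322, FDR 2.02e-12) at 7 d. Its paralog Ndufa4l2 had 5, 2, 1, 1, 3, 0, 0, 4, 5, 0, 0, 1, 1, 6, 2 and 8 counts in the 16 libraries, near the floor of 3 counts, and no fold is given. The 3 further copies Ndufb4c, Ndufa11b and Ndufs6b had 16, 16 and 62 counts in total, and no fold is given for them.

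For scale, subunits of the other complexes were counted in the same fits, where 26.9% and 27.7% of all genes were higher and lower at 48 h and 28.9% and 27.9% at 7 d. At 48 h complex II had 1 higher and 3 lower of 4 (median -0.32), complex III 2 and 5 of 9 (median -0.24), complex IV 2 and 9 of 15 (median -0.43) and ATP synthase 2 and 12 of 17 (median -0.40), beside 7 and 11 of 37 and a median of -0.046 for complex I. At 7 d the counts were 1 and 3, 1 and 8, 1 and 9, and 0 and 15 by edgeR, the last the same by DESeq2 and at an unadjusted p under 0.05, with medians of -0.30, -0.30, -0.13 and -0.33, and -0.051 for complex I. Without sorafenib 48 h replicate 2 the 48 h medians were -0.33, -0.27, -0.35 and -0.30, the 48 h counts 1 and 3, 3 and 5, 2 and 10, and 2 and 13, and the 7 d counts 1 and 3, 1 and 8, 1 and 9, and 0 and 16. In the fit without that library, 28.5% and 28.6% of all genes were higher and lower at 48 h, and 31.2% and 30.7% at 7 d. The complex IV list took every tested Cox4 to Cox8 gene by name, so it holds Cox7a2l and leaves out Ndufa4. It also holds Cox4i2 and Cox7a1, at only 0 to 5 and 0 to 10 counts a library and called at neither time. Cox6a2, called higher at both times, had 2 to 11 counts a library with DMSO and 192 to 345 with sorafenib. All these counts and medians are descriptions, and no test compares the complexes.

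Levels between genes were compared per kilobase of exon, using the union of all GENCODE isoforms, since the annotation of the deposited counts is not given in the sources used here. With DMSO at 48 h the median over subunits was 400.4 normalised counts per kilobase and that over assembly factors 116.5. With sorafenib at 48 h these medians were 438.3 and 121.0, with DMSO at 7 d 427.3 and 119.7, and with sorafenib at 7 d 438.4 and 114.8. Among subunits the level per kilobase with DMSO at 48 h ran from 54.5 ± 2.89 (SD, n = 4) in Ndufb4 to 3050 ± 123 in Ndufa2. Among assembly factors of the same group it ran from 33.1 ± 2.14 in Ndufaf6 to 418 ± 25 in Ndufaf8. At 7 d Ndufb2 lay under Ndufb4, at 57.1 against 64.2 with DMSO and 47.7 against 54.5 with sorafenib. This order rests on the union exon lengths, 11465 bases for Ndufb2 and 2512 for Ndufb4. In raw counts with DMSO at 7 d, Ndufb2 had 565 to 800 and Ndufb4 154 to 212. Ndufa2, with the highest level per kilobase, has 616 bases, so the ranking of single genes depends on these lengths. The ranges of the sets overlap, so the order holds for the medians and not for each pair.

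Exons of other genes overlap some members. Of the 45 subunits and assembly factors, 1 shared over 10% of its exon bases with a gene on the same strand and 13 with a gene on the opposite strand, most in Ndufb11 (67.8%) and Ndufa3 (62.5%). The strand setting of the counting is not given in the sources used here, so the values of those genes are uncertain. These are shares of exon bases and not of reads, so they do not give the size of that uncertainty. Among the genes with values in every library above, this touches Ndufa4l2 (63.3%, outside those 45), Ndufa3, Ndufaf2, Ndufa13, Ndufaf8, Ndufa6, Ndufs1 and Ndufa5. Among other genes named with a fold change, the share on the opposite strand was 28.7% in Ndufb9, 44.2% in Lyrm2, 21.0% in Ecsit, 13.2% in Dmac2, 12.5% in Foxred1 and just over 10% in Dmac1.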

How the data were processed

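Gene expression was measured by RNA-seq in 16 libraries of cultured mouse cells, from 1000 ng of total RNA each. The authors deposited raw counts per gene, in a table of 40840 genes, and named STAR 2.7.1a on GRCm39, featureCounts 2.0.6 and DESeq2 1.40.2 in their methods and processing notes. The gene annotation and the strand setting are not given in the sources used here.

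From these counts, genes with at least 10 counts in total (20444) were scaled by TMM and fitted with edgeR 4.0.16 in R 4.3.3, with 1 coefficient per group over all 16 libraries, quasi-likelihood F tests and Benjamini-Hochberg adjustment over all genes tested. The script was tested on simulated data. Depth was 16586254 to 30828427 counts, at which 3 counts correspond to 2.44 to 4.54 normalised counts, covering counting error only. Counts of replicates differed beyond sampling noise, and all 16 libraries were kept apart.

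Values in every library were given for the 3 largest rises and falls among called subunits at each time, each Ndufaf gene, Ndufa9, Ndufb8, Ndufa4, Ndufa4l2 and the 3 smallest interaction p-values, 23 genes in all. Members and lists were chosen with earlier results of these data known. Alternatives were DESeq2 size factors, total counts, other filters, DESeq2 1.42.0, an added fold change threshold, a replicate block, the 8 libraries of a time point alone, and leaving out each library. Positions and exon lengths came from GENCODE for GRCm39. The mt-Nd genes and Coa1 were not found under these names in the count table and were not analysed here. Of the subunits, 1 enters the counts and medians but is not reported by itself here.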

Additional observations from a re-analysis of the deposited data

Results flagged for a closer look

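The response to sorafenib differed between 7 d and 48 h in the interaction test of edgeR for 12 of the genes given in every library. As log2 differences of the 7 d response minus the 48 h response, these were Ndufv3 at 0.91, Ndufa7 at 0.70, Ndufa3 at 0.41, Ndufa6 at 0.38 and Ndufa13 at 0.20 upward. Downward they were Ndufaf4 at -1.07, Ndufs5 at -0.36, Ndufs1 at -0.29, Ndufa5 at -0.29, Ndufab1 at -0.19, Ndufa9 at -0.18 and Ndufa4 at -0.12. In size, the difference between times was larger in the sorafenib libraries for Ndufs1, Ndufab1 and Ndufa4, and larger in the DMSO libraries for the others. Time and harvest cannot be told apart in either. The call of Ndufab1 was lost without any of 12 of the 16 libraries (FDR 0.0655 to 0.145), and that of Ndufa4 without any of 13 (FDR 0.0563 to 0.206). Both were also lost with DESeq2 size factors (FDR 0.0707 and 0.0728), total counts (FDR 0.389 and 0.749), 10 counts in every library (FDR 0.15 and 0.266) and a replicate block (FDR 0.0695 and 0.0751), and Ndufab1 with DESeq2 (FDR 0.0573). That of Ndufa9 was lost without DMSO 48 h replicate 3 (FDR 0.0617) or 4 (FDR 0.0547), with total counts (FDR 0.244) and with 10 counts in every library (FDR 0.0536).

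By Dixon's Q, the gap from a library to its nearest neighbour over the range of the group, a single library lay past the 5% limit for 4 values in 5 cases. Sorafenib 48 h replicate 2 was low in Ndufa6 (894 normalised counts) and in Ndufa7 (1323), genes on the chromosomes where that library had lowered counts. DMSO 48 h replicate 4 was low in Ndufaf1 (507), DMSO 48 h replicate 3 was low in Ndufaf7 (759), and sorafenib 48 h replicate 3 was high in Ndufaf2 (552). Over the 88 groups tested, chance gives about 1 in 20 groups. The low values of sorafenib 48 h replicate 2 in Ndufv3 (535), Ndufaf7 (578) and Ndufb8 (1562) did not pass this limit. No cause was tested.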

How the results depend on the processing

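Among the gene results run under the alternatives, which cover the drug contrasts and the interaction, no called value changed sign. The markers and the contrasts between times of single genes are not among these results. Over 110 gene results and 2584 values, 2349 were on the same side of the threshold with the same direction, 209 lost a call and 25 gained one. The remaining value, the ratio of the median subunit to the median assembly factor level, was 3.40 per kilobase (mean over the DMSO 48 h libraries, SD 0.0656) and 3.28 without scaling to length (SD 0.0627).

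With a log2 fold change of at least 1 in size added, 0 subunits were called in either direction in any contrast, except 1 lower between the DMSO times. Assembly factors then gave 0 in each count that moved, and those with other names 1 higher and 1 lower at 48 h and 0 at 7 d and in the interaction. This follows from the stricter threshold. The 8 libraries of 7 d alone gave 8 subunits higher and 16 lower there. Without a filter, 2 assembly factors were lower at 7 d. With total counts, subunits gave 10 and 4 in the interaction and 2 higher between DMSO times, and assembly factors gave 2 lower between DMSO times and 2 higher between sorafenib times. Median log2FCs with total counts were -0.12 for subunits and 0.0265 for assembly factors at 48 h, and -0.0275 for subunits at 7 d. With 10 counts in every library, 4 subunits were lower in the interaction. Between sorafenib times, that filter and DESeq2 each gave 2 subunits and 2 assembly factors higher (19.4% of all genes by DESeq2). The cause of these shifts was not tested.

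Leaving out each library in turn, subunits higher at 48 h numbered 6 to 11, with 11 without sorafenib 48 h replicate 2, and the median ran from -0.0957 (without DMSO 48 h replicate 3) to -0.0339. At 7 d, subunits higher numbered 5 to 8 and lower 8 to 16, with 8 and 16 without that replicate 2, and assembly factors lower 2 to 4, with 2 without DMSO 7 d replicate 3. In the interaction, subunits lower numbered 4 to 10 (4 without DMSO 48 h replicate 3), assembly factors lower 1 to 2 (2 without sorafenib 48 h replicate 2 or DMSO 7 d replicate 1) and those with other names 2 to 5 (5 without sorafenib 48 h replicate 2). Assembly factors lower between DMSO times numbered 1 to 2 (2 without sorafenib 48 h replicate 2). Between sorafenib times, subunits higher numbered 1 to 2 (2 without sorafenib 48 h replicate 1 or 2) and lower 7 to 13 (13 without replicate 2), and assembly factors higher 1 to 2 (2 without sorafenib 48 h replicate 1).

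The replicate numbers did not pair the libraries: correlations of their deviations ran from -0.0497 to 0.128, 2 of 8 pairs were over 0.1 and 2 of 8 correlated best with their own number. With the number as a replicate block, subunits gave 7 higher and 11 lower at 48 h, 5 and 11 at 7 d, and 6 and 5 in the interaction. Assembly factors gave 4 and 1, 3 and 3, and 0 and 1 in the same block fits by edgeR. No share over all genes is given for the block fits, so these counts are not set against a background. The same holds for counts under other filters, with the added fold change threshold, or without a library other than sorafenib 48 h replicate 2.

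With 4 libraries a group, calls near the threshold moved with single libraries, and 1 library with lowered counts over part of the genome enters the shared estimate of the spread in all contrasts.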
